A study of Sus scrofa with 54 samples.

Results

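The comparison described here is that of the ileum of indoor, sow-reared piglets (IN) at day 28 with the ileum of IN piglets at day 5, which takes 12 of the 54 arrays of the study, 6 from IN day 28 and 6 from IN day 5. It was set by rearing group and day alone and used no measured value. The piglets were Large White × Landrace offspring of 1 boar, they suckled their own sows in an indoor (intensive) unit, and they received neither the isolator housing nor the daily antibiotics of another group. Day 28 was the day of weaning in the study's design and day 5 was called neonatal. A different piglet was killed for each array, so no animal was measured at both days, and since each indoor sow gave several IN piglets some of these 12 shared a mother. Each array held RNA from an undivided piece of ileum, cut at 75% of the length from the pyloric sphincter. For comparison, 12 arrays each came from OUT piglets, which suckled sows in an outdoor (extensive) unit, and from IR piglets, which were taken from the indoor sows into individual isolators, fed milk replacer and dosed with antibiotics daily, again 6 at day 28 and 6 at day 5. The question that the 2 ages put is which genes of the ileum differ between the newborn and the weaning-age piglet under 1 indoor regime, and whether that difference is of another size outdoors or in isolators.

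At birth the ileum of the pig is lined by fetal-type enterocytes, which hold large vacuoles, take up milk proteins whole from the lumen through receptors such as megalin and cubilin, and digest them in lysosomes. Within the suckling weeks these cells are replaced by adult-type enterocytes, which digest at the brush border and, in the ileum, recover bile acids. Over the same weeks T cells enter the epithelium and lamina propria, and plasma cells begin to make immunoglobulin that is carried across the epithelium into the lumen.

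The values are log2 signals from GeneChip Porcine Genome arrays, on which a probeset is a group of short probes for 1 transcript, and a difference of 1 is a doubling. A probeset was called higher or lower in IN day 28 where the limma fit of the 12 arrays gave an adjusted p under 0.05 (Benjamini-Hochberg, over 23999 probesets) and at least a 2-fold difference. Array medians lay between 3.99 and 4.17. The arrays of IN day 5 correlated with each other at 0.976 to 0.988, and those of IN day 28 at 0.916 to 0.981.

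One array of IN day 28, replicate 3, stood apart from its label. It correlated on average at 0.973 with the arrays of IN day 5 and at 0.935 with the other arrays of IN day 28, and the array of the 36 that it matched best was OUT day 5 replicate 4 (0.980). Its position was read on 1449 probesets called between OUT day 28 and OUT day 5 in the fit of 36 arrays described below, where the differences rest on OUT arrays alone but the error is shared with the IN arrays. On 72.3% of them IN day 28 replicate 3 lay nearer to the OUT day 5 mean, against 5.8, 18.8, 19.1, 23.5 and 9.8% for replicates 1, 2, 4, 5 and 6 of IN day 28 and 85.4 to 95.1% for the arrays of IN day 5. It therefore lay between the groups and on the side of day 5. The label was kept and results are given with replicate 3. Where a list's count differs without it, that count is given too. Replicate 3 was singled out because it lay near day 5. Leaving it out therefore tends to enlarge differences and counts and to shrink p-values, and such values are no separate support.

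**Figure D1:**
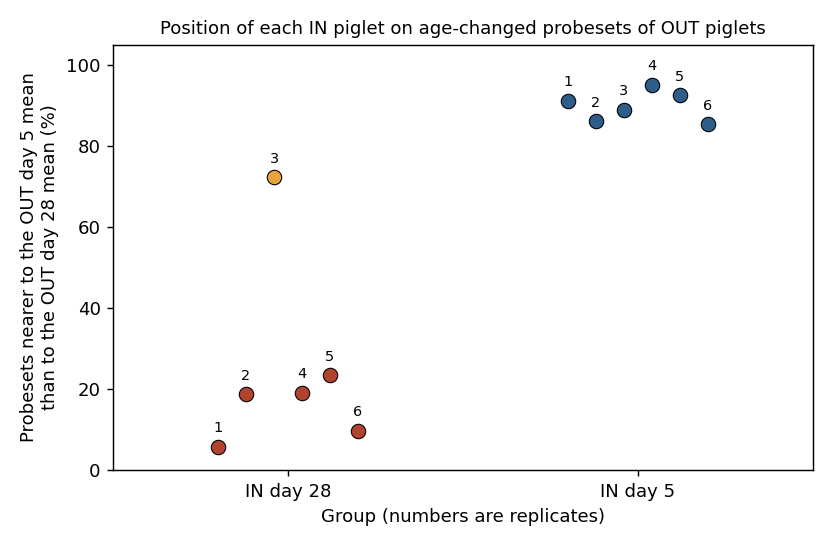
Share of 1449 probesets called with age in OUT piglets on which each IN array lies nearer to the OUT day 5 mean than to the OUT day 28 mean, in percent (vertical axis), for the 6 arrays of IN day 28 and the 6 of IN day 5 (points, numbered by replicate, with replicate 3 of IN day 28 in orange). At 72.3% replicate 3 is far from the other IN day 28 arrays, of which the highest is at 23.5%, and below the IN day 5 arrays, which start at 85.4%.

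Markers of the cell types of the ileum were read at their mean level. The 4 enterocyte markers on the array lay at 12.1 to 13.3 in IN day 28 and 12.4 to 12.8 in IN day 5, and none was called. EPCAM, an adhesion protein of all epithelial cells, was at 12.63 to 13.10 in IN day 28 and 12.77 to 12.88 in IN day 5. Smooth muscle markers were at 11.1 to 12.2 in IN day 28 and 11.9 to 12.2 in IN day 5, and red blood cell markers at 5.96 to 7.15 in IN day 28 and 6.02 to 7.79 in IN day 5. T cell markers differed more, with 5 of 6 called higher, beside 3.89% of all genes. Their mean levels were 3.17 to 7.77 in IN day 28 and 3.34 to 3.68 in IN day 5, the lowest being replicate 3. Of 3 endothelium markers 2 were lower, beside 3.59% of all genes, at 5.97 to 6.92 in IN day 28 and 7.23 to 8.11 in IN day 5. Of 2 plasma cell markers 1 was higher, at 3.66 to 8.22 in IN day 28 and 3.31 to 5.41 in IN day 5. The 1 B cell marker was not called, at 2.37 to 9.79 in IN day 28 and 2.49 to 2.84 in IN day 5. In a piece of whole ileum, fewer cells of a type and less RNA per cell cannot be told apart, and this holds for every result below. The 3′ minus 5′ signal of GAPDH, which grows as RNA is broken down, was 0.33 to 0.61 in IN day 28 and 0.23 to 0.85 in IN day 5. That of actin was 0.48 to 1.40 in IN day 28 and 0.71 to 1.75 in IN day 5, with replicate 3 the highest of IN day 28 in both.

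Many transcripts differed with age in IN piglets. Of 23999 probesets, 564 (2.35%) were higher and 761 (3.17%) lower in IN day 28 than in IN day 5, and 2644 had an adjusted p under 0.05. They stood for 317 symbols higher and 298 lower. With 1 probeset a gene, the brightest, 263 of 6765 genes (3.89%) were higher and 243 (3.59%) lower, and the median difference over these genes was 0.07. In 603 of the 1325 probesets called the values of IN day 28 and IN day 5 did not overlap, which held for 1360 of all 23999 (5.67%). Without IN day 28 replicate 3, 1059 probesets were higher and 1210 lower, and 1297 of the 1325 were called in the same direction with it and without it. Per gene, 530 (7.83%) were then higher and 379 (5.6%) lower. Among the probesets called, the median SD was 0.76 in IN day 28 and 0.37 in IN day 5, and it was still 0.64 in IN day 28 without replicate 3.

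Among the 15 genes with the largest falls, the first places were held by ITIH4, GPX3 and APOC2, which all encode secreted proteins. ITIH4, an acute-phase plasma protein, had 2.96, 2.55, 8.93, 2.41, 3.59 and 2.90 in replicates 1 to 6 of IN day 28, against 9.53, 11.59, 10.82, 11.43, 10.45 and 10.80 in those of IN day 5. Its log2 difference was -6.88 (SE 0.96, adjusted p = 0.00214). In IN day 28 all values but that of replicate 3 were near the bottom of the array's scale, which limits what the size of this difference says. GPX3, a secreted glutathione peroxidase, had 6.08, 4.94, 12.15, 5.60, 4.90 and 5.12 in IN day 28, against 13.01 to 13.66 in IN day 5 (log2 difference -6.86, SE 1.05, adjusted p = 0.00343). The groups did not overlap in either gene, as in 5.67% of all probesets. The exact two-sided permutation p was 0.00216, the smallest that splits of 12 piglets into 6 and 6 allow. Both genes were chosen as the largest falls in the same arrays, so this p is no separate support. Without replicate 3 the differences were -7.89 for ITIH4 and -8.00 for GPX3.

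APOC2, the cofactor of lipoprotein lipase, differed widely among the piglets of IN day 28. It had 3.15, 5.01, 13.02, 10.70, 7.20 and 2.46 in replicates 1 to 6 of IN day 28, against 13.57 to 13.90 in IN day 5. The groups did not overlap, but the IN day 28 piglets ran from 2.46 to 13.02 (log2 difference -6.77, SE 1.56, adjusted p = 0.0194), and replicates 4 and 5 were intermediate. UPK3A, a uroplakin of the apical membrane of urothelium, had a lowest, median and highest value of 2.40, 4.75 and 6.85 in IN day 28 and of 7.81, 9.18 and 11.02 in IN day 5 (log2 difference -4.67, SE 0.76), with replicate 3 at 5.47 among the other IN day 28 piglets. CAPNS1, the small subunit of the calpain proteases, was at 5.42 to 8.51 in IN day 28, apart from 12.76 in replicate 3, and at 13.14 to 13.76 in IN day 5 (log2 difference -5.48, SE 0.95). Its other probeset differed by -0.01, so the fall rests on 1 of its probesets.

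Retinol-binding proteins and a steroid dehydrogenase were among the same 15. RBP5, a cellular retinol-binding protein, was at 3.62 to 8.79 in IN day 28 and 9.36 to 10.43 in IN day 5 (log2 difference -4.97, SE 0.74, adjusted p = 0.00306). RBP4, the plasma carrier of retinol, was lower by 5.58 on the log2 scale on 1 probeset, whereas its brighter probeset had medians of 9.79 in IN day 28 and 10.44 in IN day 5 and was not called (log2 difference -0.74, adjusted p = 0.122). HSD17B14, a dehydrogenase of steroids, had medians of 5.16 in IN day 28 and 10.75 in IN day 5 (log2 difference -4.76, SE 0.62, adjusted p = 0.00135), and no value of one group reached the other. The remaining falls of this size joined enzymes and a protease. They were ACSS3, a short-chain acyl-CoA synthetase (-4.69), TDH, threonine dehydrogenase (-4.69), HPN, the membrane protease hepsin (-4.45), ETNK2, an ethanolamine kinase (-4.36, with -0.13 on its other probeset) and LOC100154873, which has no further name here (-4.25). In each of these 5 replicate 3 of IN day 28 was the highest of its group, at 9.24, 10.57, 7.54, 6.75 and 9.73.

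**Figure D2:**
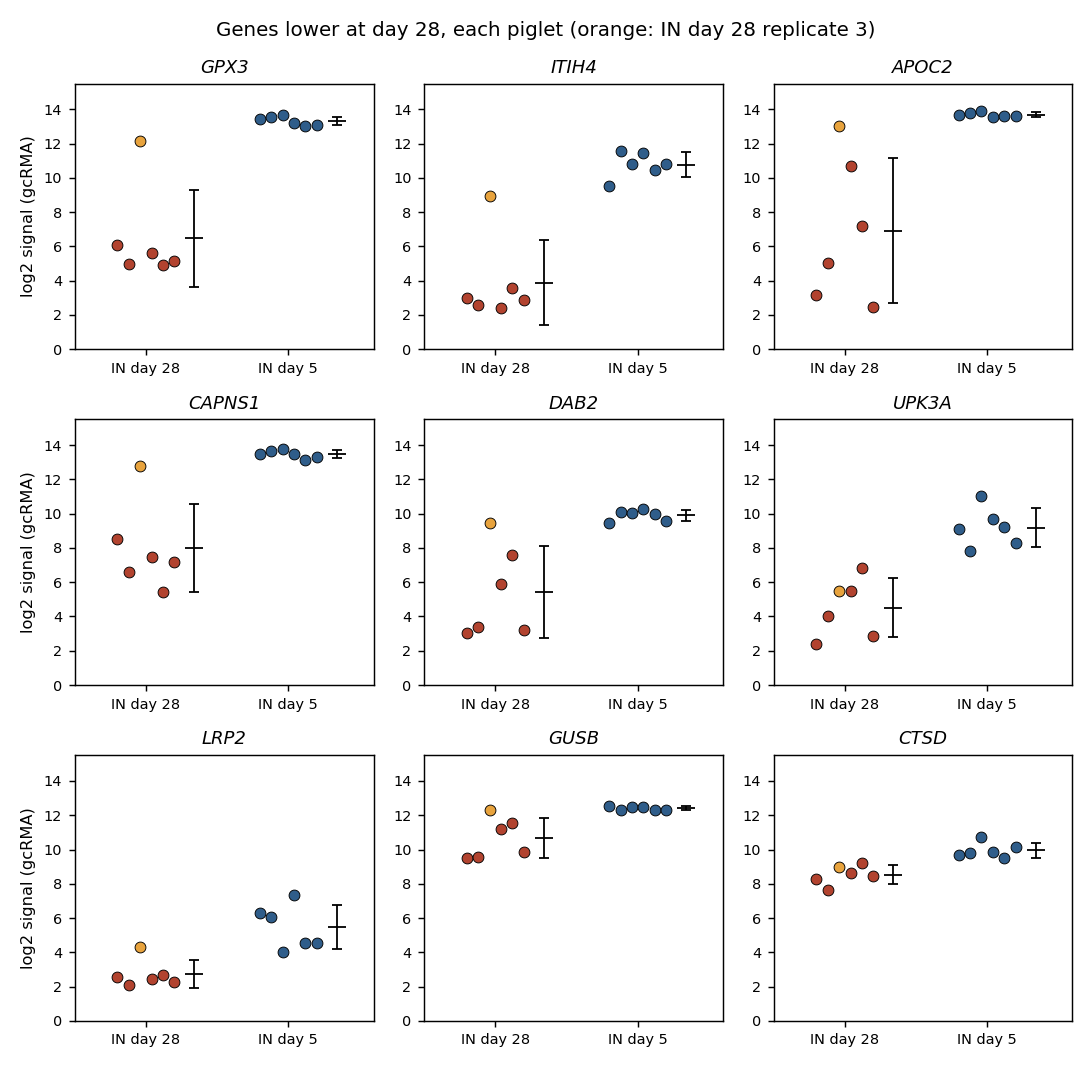
log2 signal (vertical axis) of 9 genes lower in IN day 28, one point a piglet, with IN day 28 on the left and IN day 5 on the right of each panel, replicate 3 of IN day 28 in orange and a bar for the mean ± SD. In GPX3, ITIH4 and APOC2 replicate 3 is within 1 unit of the lowest IN day 5 value, whereas in UPK3A and CTSD it lies inside the range of the other IN day 28 piglets.

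Genes by which fetal-type enterocytes take up and digest luminal protein were lower where they passed the test. Of 30 genes listed for it 22 were on the array. Of these, 8 were lower and none higher in IN day 28, where 3.59% of all genes were lower, and the list's median difference was -1.45, against 0.07 over all genes. Without replicate 3 of IN day 28, 16 were lower and 1 higher (median -1.61), against 5.6% of all genes lower. With dim probesets left out 11 were lower, against 5.1% of all genes. That share may be too small, because the genes counted for it can include some that the filter removed from this comparison. Over the other fits that left out 1 array the number lower fell to 5, without replicate 1, 2 or 6 of IN day 28 or replicate 1, 2, 3 or 4 of IN day 5. LRP2 is megalin, the large uptake receptor. It had 2.54, 2.10, 4.34, 2.44, 2.67 and 2.29 in IN day 28, against 6.32, 6.06, 4.04, 7.33, 4.54 and 4.54 in IN day 5 (log2 difference -2.74, SE 0.56, adjusted p = 0.0124). Only replicate 3 of IN day 28 and replicate 3 of IN day 5 overlapped, and the other IN day 28 values were near the bottom of the scale. DAB2, the adaptor that couples megalin to clathrin, was lower on 1 probeset, with 3.03, 3.40, 9.48, 5.91, 7.60 and 3.21 in IN day 28 and 9.44 to 10.28 in IN day 5 (log2 difference -4.46, SE 0.999, adjusted p = 0.0174). On its brightest probeset, by which the list counts it, the difference was -3.01 with an adjusted p of 0.0622, and DAB2 is not among the 8. AMN, amnionless, the partner of cubilin, had a median of 9.04 in IN day 28 and 10.94 in IN day 5 and was not called (log2 difference -2.97, SE 1.03, adjusted p = 0.0830), with replicates 1 and 6 of IN day 28 at 3.95 and 5.13 and the other 4 at 8.24 or more.

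The other 7 genes lower in this list were lysosomal. GUSB, a glucuronidase, had 9.49, 9.57, 12.32, 11.22, 11.52 and 9.88 in IN day 28, against 12.30 to 12.55 in IN day 5 (log2 difference -1.75, SE 0.44, adjusted p = 0.0278). Replicates 1, 2 and 6 were the lowest of IN day 28 and replicates 3, 4 and 5 the highest, as in DAB2. TPP1, a lysosomal peptidase, was at 8.87 to 11.32 in IN day 28 and 11.43 to 12.14 in IN day 5 (log2 difference -1.71, SE 0.40, adjusted p = 0.0195), and CTSD, cathepsin D, at 7.66 to 9.19 in IN day 28 and 9.48 to 10.72 in IN day 5 (log2 difference -1.42, SE 0.26, adjusted p = 0.00816). Neither overlapped between the groups. HEXA, a hexosaminidase (-1.64), and CTSZ, cathepsin Z (-1.47), were lower as well, with replicate 3 of IN day 28 above the lowest IN day 5 value in both. PSAP, the precursor of the saposins, and LGMN, the protease legumain, completed the 8. PLBD2, a lysosomal protein of the phospholipase B family, stood among the largest falls, at -4.37 on 1 probeset and -2.92 on a brighter one. FCGRT, the Fc receptor that carries IgG through cells, was not called, with medians of 11.60 in IN day 28 and 11.89 in IN day 5.

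Growth and fetal genes made a second, smaller set of falls. Of 22 imprinted, fetal and growth factor genes on the array 6 were lower and none higher in IN day 28 (median -0.42), and 7 were lower without replicate 3, beside 3.59% of all genes lower with it and 5.6% without it. The number was 3 without replicate 2 or 6 of IN day 28 or without replicate 1 or 4 of IN day 5. IGF1R, the receptor of insulin-like growth factors, had a lowest, median and highest value of 3.23, 4.06 and 5.85 in IN day 28 and of 5.65, 7.12 and 8.02 in IN day 5 (log2 difference -2.63, SE 0.50, adjusted p = 0.00927). IGF2R, the receptor that clears IGF2 and also carries lysosomal enzymes, was at 2.66 to 4.63 in IN day 28 and 4.67 to 6.10 in IN day 5 (log2 difference -1.48, SE 0.34, adjusted p = 0.0185). IGFBP2, a binding protein of these factors, was at 3.01 to 3.92 in IN day 28 and 3.98 to 5.12 in IN day 5 (log2 difference -1.38, SE 0.22, adjusted p = 0.00393). The last 2 genes did not overlap between the groups, and replicate 3 sat with its own group in IGFBP2. IGFBP2 was near the bottom of the array's scale in both groups, which limits what its difference says. The imprinted genes PLAGL1, a zinc finger factor (-1.31), GRB10, an adaptor of the insulin receptor (-1.31), and PEG10, a retrotransposon-derived gene (-1.03), completed the 6. IGF2 itself had medians of 4.50 in IN day 28 and 6.37 in IN day 5 and was not called (adjusted p = 0.224).

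Matrix genes were also among the falls. Of 25 extracellular matrix genes 4 were lower and none higher in IN day 28 (median -0.51), beside 3.59% of all genes lower. Without replicate 3, 4 were lower, beside 5.6% of all genes. By the probeset with the smallest p in place of the brightest it was 6. MFAP2, a protein of elastic microfibrils, was at 4.05 to 6.21 in IN day 28 and 6.84 to 8.62 in IN day 5 (log2 difference -2.80, SE 0.39, adjusted p = 0.00193). MMP2, a gelatinase (-1.54), COL15A1, a basement membrane collagen (-1.30), and BGN, the proteoglycan biglycan (-1.17), were the other 3. Leaving out single arrays gave 3 to 6.

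Of 18 vessel genes 1 was higher and 2 were lower, where 3.89% of all genes were higher and 3.59% lower. Without replicate 3 of IN day 28, 3 were higher and 2 lower, beside 7.83% and 5.6% of all genes. VWF, the von Willebrand factor of endothelium, was at 4.45 to 5.66 in IN day 28 and 6.70 to 7.75 in IN day 5 (log2 difference -2.11, SE 0.23, adjusted p = 0.000777), although its 2 other probesets differed by 0.01 and 0.00. CDH5, the cadherin of endothelial junctions, was at 5.29 to 6.49 in IN day 28 and 7.05 to 8.22 in IN day 5 (log2 difference -1.52, SE 0.26). AQP1, a water channel of capillaries and lymph vessels, went the other way, at 6.99 to 8.84 in IN day 28 and 4.74 to 5.72 in IN day 5 (log2 difference 2.39, SE 0.30, adjusted p = 0.00111). None of the 3 overlapped between the groups, and replicate 3 of IN day 28 had 5.57, 6.46 and 7.23 in VWF, CDH5 and AQP1, inside the range of the other IN day 28 piglets. PECAM1, a further endothelial marker, had medians of 7.90 in IN day 28 and 8.25 in IN day 5 on its brightest probeset, which was not called, while its other probeset was lower (log2 difference -1.40, adjusted p = 0.0134).

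Among genes of absorption the largest rise was that of the ileal bile acid carrier. FABP6, which binds bile acids inside ileal enterocytes, had 11.41, 11.65, 2.52, 13.04, 6.33 and 12.23 in replicates 1 to 6 of IN day 28, against 2.32, 3.12, 3.14, 2.45, 2.83 and 3.92 in IN day 5. In IN day 28, replicates 1, 2, 4 and 6 were high, replicate 5 was intermediate and replicate 3 was at the IN day 5 level (log2 difference 6.57, SE 1.55, adjusted p = 0.0211). Without replicate 3 the difference was 7.97. All IN day 5 values were near the bottom of the array's scale, which limits what its size says. The same holds for PIGR, TFF2, CCR9, LCK, CCL19 and CD86 below. FABP6 and these genes except CD86 were among the dim probesets left out. FABP6 was the only one called of 7 bile acid genes on the array, whose median was -0.47, beside 3.89% of all genes higher. Without replicate 3, 1 other was lower, beside 5.6% of all genes.

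The transporters SLC2A5 and SLC5A1 were also higher. Of 6 genes for disaccharidases and sugar transport 2 were higher and none lower in IN day 28, where 3.89% of all genes were higher, and 4 were higher without replicate 3, where 7.83% of all genes were. SLC2A5, the fructose transporter, had 7.23, 6.56, 6.14, 8.88, 8.13 and 5.41 in IN day 28 and 3.84 to 5.18 in IN day 5 (log2 difference 2.55, SE 0.52, adjusted p = 0.0114). SLC5A1, the sodium-glucose cotransporter, was at 10.17 to 13.06 in IN day 28 and 9.20 to 10.11 in IN day 5 (log2 difference 1.96, SE 0.42, adjusted p = 0.0148). In both genes the groups did not overlap and replicates 4 and 5 of IN day 28 were the highest. Of 20 genes of fatty acid oxidation and ketogenesis only PDK4 was called, beside 3.89% of all genes higher. Without replicate 3 of IN day 28, 3 were higher, beside 7.83% of all genes. PDK4, the kinase that shuts pyruvate out of the citric acid cycle, was at 7.91 to 10.41 in IN day 28 and 5.39 to 7.78 in IN day 5 (log2 difference 2.52, SE 0.52, adjusted p = 0.0127). Of 16 genes for lipid absorption and lipoproteins 1, APOE, an apolipoprotein that also serves in macrophages, was lower (log2 difference -2.21, SE 0.65, adjusted p = 0.0471), and its other probeset differed by 0.14. The 1 lower of 16 stood beside 3.59% of all genes lower. Without replicate 3 of IN day 28, 2 of the 16 were higher and 3 lower, beside 7.83% and 5.6% of all genes. FABP2 and APOA4, the fatty acid carrier and the apolipoprotein of mature enterocytes, were not called, with medians of 13.31 and 13.41 in IN day 28 and 12.74 and 13.09 in IN day 5.

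Of the genes of secretory immunity, PIGR and JCHAIN were high in 5 of 6 piglets of IN day 28. PIGR, the receptor that carries polymeric immunoglobulin across the epithelium, had 9.91, 7.70, 2.22, 5.17, 7.58 and 9.29 in IN day 28, against 1.85 to 3.53 in IN day 5 (log2 difference 4.59, SE 1.08, adjusted p = 0.0208). JCHAIN, the chain that joins immunoglobulin A into dimers, had 12.09, 12.05, 4.70, 10.91, 12.20 and 12.29 in IN day 28, against 7.83, 3.82, 4.21, 4.91, 7.07 and 6.01 in IN day 5 (log2 difference 5.07, SE 1.25, adjusted p = 0.0252). All piglets of IN day 28 except replicate 3 lay above IN day 5 in both genes. These 2 were the genes called of 7 on the array in the immunoglobulin and plasma cell list, beside 3.89% of all genes higher. Without replicate 3 it was 3, beside 7.83% of all genes. Only 1 was called without replicate 2 or 6 of IN day 28 or replicate 2, 3 or 4 of IN day 5. LOC396781, which RefSeq gives the synonym IGHG, an immunoglobulin heavy chain, had 10.72, 9.75, 2.82, 8.77, 11.56 and 10.92 in IN day 28, against 2.11 to 6.00 in IN day 5 (log2 difference 6.01, SE 1.30). The gene with the largest rise of all, LOC100152327 (log2 difference 7.07, SE 1.42), and LOC100621559 (3.61 on 1 of its probesets) have no further name here.

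TFF2 and C4BPA, genes of defence at the mucosa, were higher by as much. TFF2, a trefoil peptide of mucus, had 8.90, 8.58, 2.60, 8.34, 9.63 and 9.68 in IN day 28, against 2.15 to 2.89 in IN day 5 (log2 difference 5.62, SE 0.995, adjusted p = 0.00655). Replicate 3 apart, the IN day 28 piglets lay close together, at 8.34 to 9.68. C4BPA, an inhibitor of complement, had 10.71, 10.15, 7.65, 11.07, 10.42 and 10.01 in IN day 28, against 4.35 to 6.69 in IN day 5 (log2 difference 4.69, SE 0.54, adjusted p = 0.000897). Here replicate 3 was between the groups and the groups did not overlap. TFF2 was the only gene higher, and SLPI, a secreted protease inhibitor, the only gene lower (log2 difference -1.39), of 22 mucus, goblet cell and antimicrobial genes, whose median was 0.02. Of all genes, 3.89% were higher and 3.59% lower. TFF3, the trefoil peptide of goblet cells, had medians of 11.76 in IN day 28 and 11.67 in IN day 5.

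**Figure D3:**
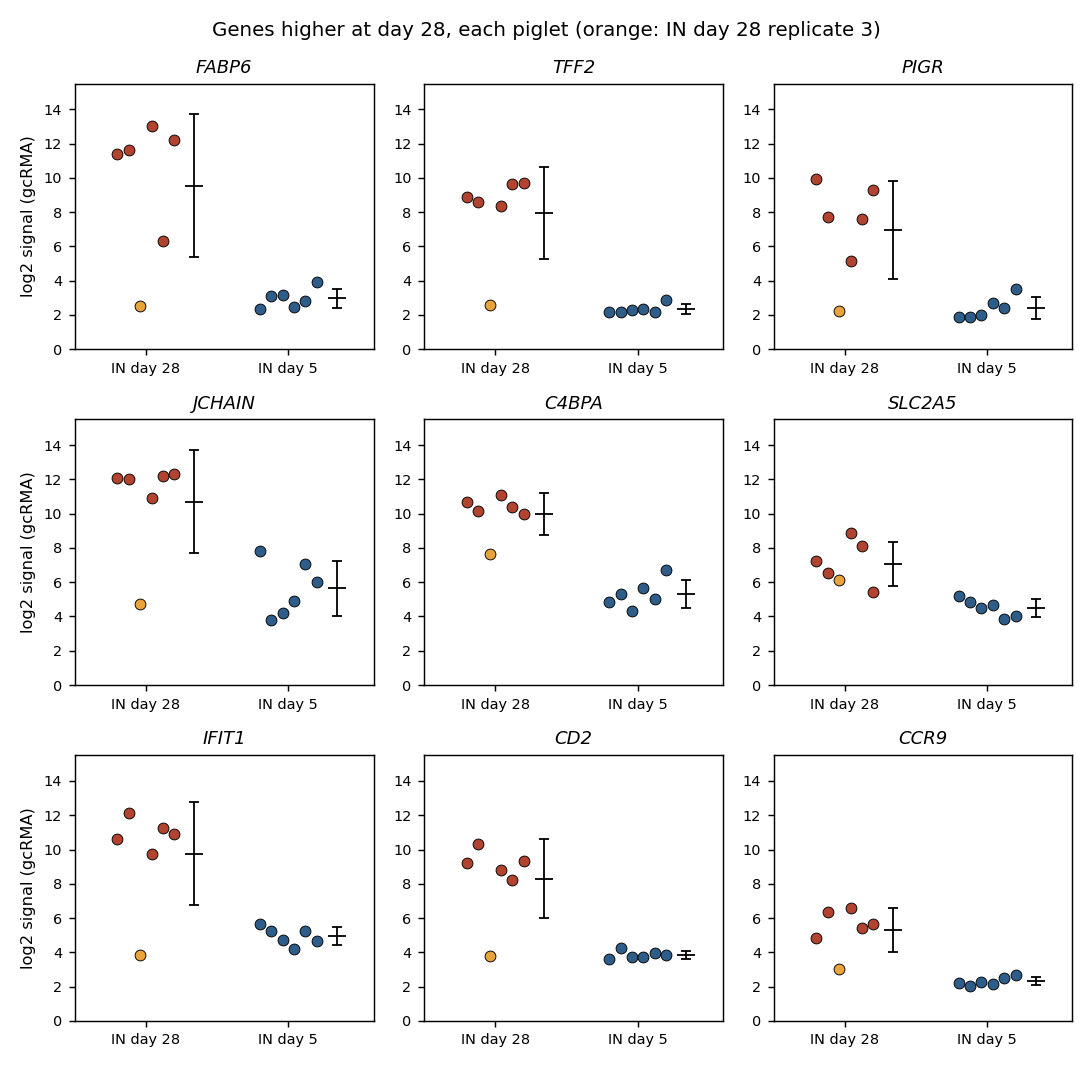
log2 signal (vertical axis) of 9 genes higher in IN day 28, one point a piglet, with IN day 28 on the left and IN day 5 on the right of each panel, replicate 3 of IN day 28 in orange and a bar for the mean ± SD. Replicate 3 is at the IN day 5 level in FABP6, TFF2, PIGR, JCHAIN, IFIT1 and CD2, between the groups in C4BPA, and above all IN day 5 piglets in SLC2A5 and CCR9.

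T cell genes gave the largest count of rises with all 12 arrays. Of 23 T cell and cytotoxic genes on the array 11 were higher and none lower in IN day 28 (median 1.49), and 13 without replicate 3 (median 1.96), beside 3.89% of all genes higher with it and 7.83% without it. With dim probesets left out 14 of the 23 were counted as tested and 5 were higher, beside 5.53% of all genes higher. That filter asked for a log2 value of at least 4 in at least 6 of the 12 arrays. A gene below 4 in IN day 5 and in replicate 3 of IN day 28, such as LCK below, could not pass it. The filtered count of rises therefore depends on replicate 3 too. Genes counted as tested here can include some that the filter removed from this comparison, so the share of 5.53% may be too small. The largest count was then 6, of interferon-induced genes. With dim probesets kept, the number of T cell genes higher was 7 without replicate 2 of IN day 28 or without replicate 1 or 4 of IN day 5. CD2, an adhesion receptor of T and natural killer cells, had 9.23, 10.34, 3.79, 8.78, 8.24 and 9.32 in IN day 28, against 3.61 to 4.25 in IN day 5 (log2 difference 4.43, SE 0.86, adjusted p = 0.00954). LCK, the kinase next to the T cell receptor, had 5.40, 8.37, 3.82, 7.11, 6.67 and 8.81 in IN day 28, against 3.09 to 3.60 in IN day 5 (log2 difference 3.36, SE 0.69, adjusted p = 0.0126), and the groups did not overlap. CD3E (3.32) and CD247 (3.22), both signalling chains of the T cell receptor, and the granzyme GZMH (3.15) were higher by similar amounts, although another probeset of CD247 differed by -0.10. CCR9, the chemokine receptor by which T cells home to the small intestine, had 4.86, 6.36, 3.005, 6.58, 5.39 and 5.65 in IN day 28, against 2.06 to 2.71 in IN day 5 (log2 difference 2.99, SE 0.49, adjusted p = 0.00474). CD4, the coreceptor of helper T cells, was near the bottom of the scale in both groups, at 2.28 to 3.07 in IN day 28 and 2.51 to 3.01 in IN day 5.

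B cell genes were high in only some piglets. None of 8 on the array was called, beside 3.89% of all genes higher, although their median was 1.61. CD79B, a chain of the B cell receptor, had 2.63, 9.79, 2.37, 2.78, 2.55 and 9.50 in IN day 28, against 2.49 to 2.84 in IN day 5 (log2 difference 2.28, SE 1.35, adjusted p = 0.290). Replicates 2 and 6 alone were high. Over the 8 genes the mean level was 8.29 and 8.30 in replicates 2 and 6, 3.38 to 4.69 in the other 4 piglets of IN day 28 and 3.76 to 4.32 in IN day 5. CCL19, a chemokine that draws T cells and dendritic cells into lymphoid tissue, was likewise highest in these 2 piglets, with 9.32, 11.63, 2.66, 6.79, 5.09 and 11.35 in IN day 28, against 2.56 to 3.83 in IN day 5 (log2 difference 4.64, SE 1.33, adjusted p = 0.0439). None of 26 proliferation genes was called (median 1.18), and without replicate 3, 2 were higher, beside 7.83% of all genes. The 26 genes had mean levels of 8.997, 8.98 and 9.42 in replicates 1, 2 and 6 of IN day 28. In replicates 3, 4 and 5 these were 6.18 to 6.68, and in IN day 5 6.35 to 6.96. PCNA, a sliding clamp of DNA replication, followed that order, with 10.59, 11.55 and 11.11 in replicates 1, 2 and 6 and 7.50 to 8.77 in the other 3, against 7.84 to 8.65 in IN day 5. Whether the pieces of ileum held lymphoid follicles is not given in the sources used here, and the part of such tissue in these levels was not tested.

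Interferon-induced genes were the list that depended most on replicate 3. Of 22 on the array 3 were higher and none lower (median 1.58), and without replicate 3 of IN day 28 it was 17 (median 2.37), while the share of all genes that were higher was 3.89% with it and 7.83% without it. With dim probesets left out 6 were higher, and 8 with replicate numbers blocked in twos. The number was 1 without replicate 1, 2 or 6 of IN day 28 or without replicate 3, 4 or 6 of IN day 5. IFIT1, which binds foreign RNA, had 10.61, 12.15, 3.86, 9.74, 11.27 and 10.88 in IN day 28, against 4.22 to 5.63 in IN day 5 (log2 difference 4.79, SE 1.12, adjusted p = 0.0204). XAF1 (3.75), a proapoptotic protein, and DDX58 (3.41), the RNA sensor RIG-I, were the other 2. ISG15, a ubiquitin-like protein, had 12.64, 13.38, 3.36, 9.55, 10.84 and 12.06 in IN day 28, against 7.89, 6.93, 5.02, 4.72, 5.27 and 4.24 in IN day 5, and was not called with all 12 arrays (adjusted p = 0.0592) but was without replicate 3 (log2 difference 6.02, adjusted p = 0.000599). MX1, an antiviral GTPase, behaved alike (adjusted p = 0.230 with all arrays and 0.00854 without replicate 3). Since replicate 3 was singled out for lying near day 5, the counts and p-values without it are no separate support. In both genes replicates 1 and 2 of IN day 5 were the highest 2 of their group, and replicate 3 of IN day 28 was below every piglet of IN day 5.

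Some genes of antigen presentation were higher as well. Of all genes, 3.89% were higher with all 12 arrays and 7.83% without replicate 3 of IN day 28. Of 15 genes of class I presentation 3 were higher, TAP1, a peptide transporter (2.81, and -0.19 on another probeset), PSMB8, an immunoproteasome subunit (2.39), and SLA-8, a pig class I molecule (1.65). Without replicate 3 of IN day 28 the count was 6, and it was 1 without replicate 1, 2, 4 or 6 of IN day 28 or replicate 1, 3, 4 or 5 of IN day 5. Of 12 genes of class II presentation only CD86, a costimulatory molecule of antigen-presenting cells, was higher, and 6 were without replicate 3. CD86 had 8.72, 9.61, 4.66, 6.99, 7.32 and 7.85 in IN day 28, against 3.05 to 3.89 in IN day 5 (log2 difference 4.05, SE 0.64, adjusted p = 0.00398), and the groups did not overlap.

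Of 23 chemokines and receptors 6 were higher and none lower (median 0.77), beside 3.89% of all genes, with 8 without replicate 3 of IN day 28 (7.83% of all genes). The number was 3 with dim probesets left out, by a filter that CCL19 and CCR9 could not pass with replicate 3 below 4. It was also 3 without replicate 2 of IN day 28 or replicate 1, 4 or 5 of IN day 5. CCL24, an eosinophil attractant, had 8.24, 7.50, 5.06, 9.57, 8.19 and 6.12 in IN day 28, against 3.78 to 4.76 in IN day 5 (log2 difference 3.35, SE 0.62, adjusted p = 0.00767), with no overlap. CCL4 (2.63) and CCL5 (2.35), attractants of T cells and monocytes, and CXCR4 (2.35), the receptor of CXCL12, were higher beside CCL19 and CCR9. In the paper's comparison of IN with OUT at day 28, CXCR4 was higher in IN by array but lower by real-time PCR. Of 21 genes of macrophages, dendritic cells and granulocytes 5 were higher (median 0.44), beside 3.89% of all genes. Without replicate 3 of IN day 28 it was 9, beside 7.83% of all genes. Only 1 was higher without replicate 1 or 2 of IN day 28 or replicate 1, 3 or 4 of IN day 5. MRC1, the mannose receptor of macrophages, was at 5.32 to 7.53 in IN day 28 and 4.30 to 4.76 in IN day 5 (log2 difference 1.596, SE 0.31, adjusted p = 0.0101), with no overlap. GPNMB, a glycoprotein of macrophages (2.94, and -0.32 on another probeset), FCER1G and TYROBP, adaptors of Fc and other receptors (2.30 and 1.69), and MCT7, named as a mast cell tryptase (2.21), were the other 4. GMFG, a regulator of actin in leukocytes, was among the 15 largest rises (3.81, and 0.21 on its other probeset), as was FAXDC2 (4.15).

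Other lists held no call with all 12 arrays, beside 3.89% of all genes higher and 3.59% lower. Without replicate 3 of IN day 28 these shares were 7.83% and 5.6%. None of 13 brush border peptidases and peptide transporters was called, although 1 was higher and 1 lower without replicate 3 of IN day 28. ANPEP, aminopeptidase N, had medians of 12.92 in IN day 28 and 12.89 in IN day 5. VIL1, villin of the microvilli, had medians of 11.85 in IN day 28 and 11.70 in IN day 5. None of 14 enteroendocrine genes was called either (median -0.50), and 2 were lower without replicate 3, with GCG, which encodes glucagon-like peptides, at medians of 10.76 in IN day 28 and 11.16 in IN day 5. None of 12 smooth muscle genes, 10 neuron and glia genes, 7 stem and crypt genes, 4 red blood cell genes, 22 drug, steroid and retinoid genes, 30 oxidative phosphorylation subunits (median 0.30) and 44 ribosomal proteins (median 0.28) was called. Without replicate 3, 1 neuron and glia gene and 1 red blood cell gene were lower and 3 drug, steroid and retinoid genes higher, and 4 of the last list were higher with the spread of 36 arrays. By the probeset with the smallest p, 7 ribosomal proteins and 1 subunit of oxidative phosphorylation were higher. OLFM4, a crypt base marker, had a median of 12.43 in both groups. A value that missed the threshold does not show that the ages were alike.

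Single genes passed in the remaining lists, beside 3.89% of all genes higher and 3.59% lower. Without replicate 3 of IN day 28 these shares were 7.83% and 5.6%. Of 15 tight junction and epithelial genes CLDN3, a claudin (log2 difference 1.74, SE 0.49, adjusted p = 0.0421), and LGALS4, a galectin of enterocytes, were higher. LGALS4 was at 11.44 to 12.80 in IN day 28 and 10.71 to 11.37 in IN day 5 (log2 difference 1.18, SE 0.22). Of 13 circadian clock and glucocorticoid-responsive genes PER1, a repressor of the clock, was higher, at 8.46 to 9.65 in IN day 28 and 7.27 to 8.38 in IN day 5 (log2 difference 1.41, SE 0.24, adjusted p = 0.00516, with -0.04 on another probeset), as was ARNTL, its activator (1.31), and 1 other was lower without replicate 3 of IN day 28. Hours of sampling are not given in the sources used here. HSD17B7, an enzyme of cholesterol synthesis, was higher (1.67) among 19 genes of that pathway and of fatty acid synthesis. ASL, argininosuccinate lyase of the urea cycle, was lower (-1.63) among 17 genes of amino acid metabolism and gluconeogenesis, and SLC39A4, the zinc importer of enterocytes, was lower (-2.20) among 11 genes of iron, copper and zinc. Without replicate 3 of IN day 28, 2 were higher and 2 lower among these 17, and 2 were lower among these 11.

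**Figure D4:**
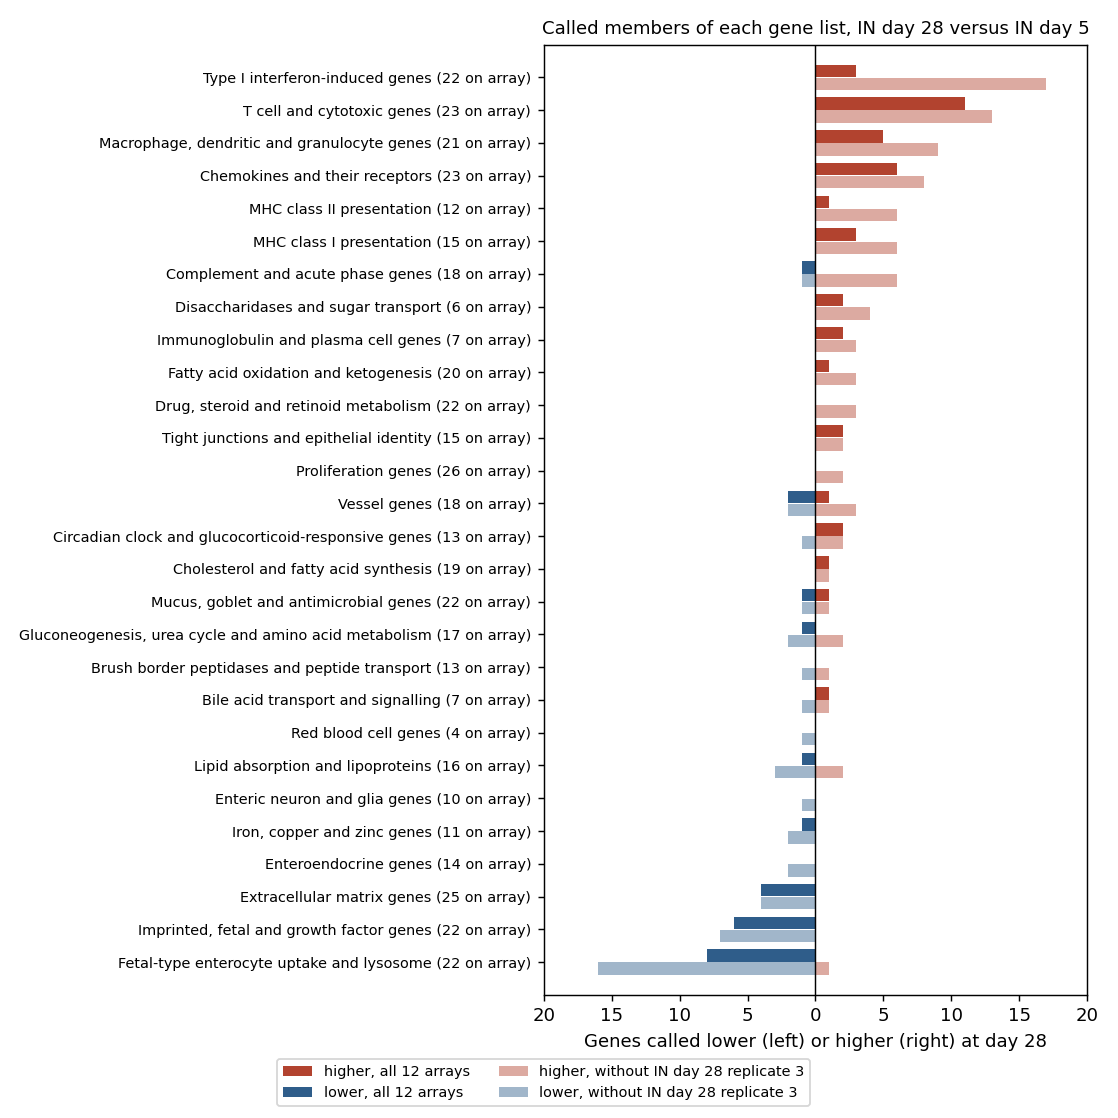
Number of genes called lower (left of 0) or higher (right of 0) in IN day 28 than in IN day 5, for each gene list with at least 1 call, with all 12 arrays (dark bars) and without IN day 28 replicate 3 (pale bars). T cell genes lead the rises with all arrays (11) and interferon-induced genes without replicate 3 (17), and uptake and lysosome genes lead the falls in both (8 and 16).

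The difference between the ages was then set beside that in OUT and in IR piglets, in 1 fit of 36 arrays with 6 group means. No array is shared by the 3 changes, although IN and IR piglets were born to the same sows. The error of each probeset is shared by all groups, so a probeset of small spread is more easily called in all 3. The overlaps of calls below are therefore not independent. One OUT array, replicate 3 of OUT day 5, correlated with its own group at 0.881 on average, where the other 5 were at 0.963 to 0.965, and values without it are given below. In this fit 1783 probesets (7.43%) were called in IN, 1449 (6.04%) in OUT and 1285 (5.35%) in IR. In IN and OUT 895 probesets were called in the same direction, 50.2% of the IN calls and 61.8% of the OUT calls, and none in opposite directions. In IN and IR it was 856, 48% of the IN calls and 66.6% of the IR calls, and again none was opposite. Without OUT day 5 replicate 3, 1143 probesets were called in IN and OUT, 56.6% of the IN calls and 68.9% of the OUT calls.

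Whether the change itself was of another size was tested by interaction contrasts. No probeset of 23999 (0%) differed between the IN and the OUT change at an adjusted p under 0.05 in limma (lowest 0.935), and none (0%) between the IN and the IR change (lowest 0.304). At an unadjusted p under 0.05 it was 1226 and 1138. Counts of 0 remained without OUT day 5 replicate 3, and also without IN day 28 replicate 3 as well. The median SE of these differences over the probesets called in IN was 0.51, so that a difference of 1 unit was about 2 SE for a typical gene, and a missed threshold does not show equal changes. Without IN day 28 replicate 4, 1 probeset, of C6H18orf21, was called between the IN and the IR change (1.41, adjusted p = 0.0430).

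Changes of ITIH4, AQP1, SLC2A5 and VWF lay close together in the 3 groups. ITIH4 differed by -6.88 in IN, -6.81 in OUT and -6.51 in IR, and AQP1 by 2.39 in IN, 2.35 in OUT and 2.44 in IR. SLC2A5 differed by 2.55 in IN, 2.33 in OUT and 2.53 in IR, and VWF by -2.11 in IN, -1.96 in OUT and -1.81 in IR. The changes of JCHAIN were farther apart, at 5.07 in IN, 6.28 in OUT and 7.21 in IR. These are values side by side, of which no difference passed its test, and equality was not tested.

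PDK4 was the gene among those named for which the groups lay farthest apart relative to the error. It differed by 2.52 in IN, 1.08 (SE 0.56) in OUT and -0.79 (SE 0.56) in IR. The IN change exceeded the IR change by 3.31 (SE 0.79, unadjusted p = 0.00019), which did not pass over all probesets (adjusted p = 0.608). PER1 exceeded its IR change by 1.12 (SE 0.39, adjusted p = 0.986), and CXCR4 its OUT change by 1.80 (SE 0.79, adjusted p = 0.935). For CXCR4 the disagreement of array and real-time PCR given above bears on this value. ANPEP and VIL1 differed by 0.09 and 0.10 in IN and by 2.01 and 1.16 in OUT, but by only 0.60 and 0.64 in OUT without OUT day 5 replicate 3.

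**Figure D5:**
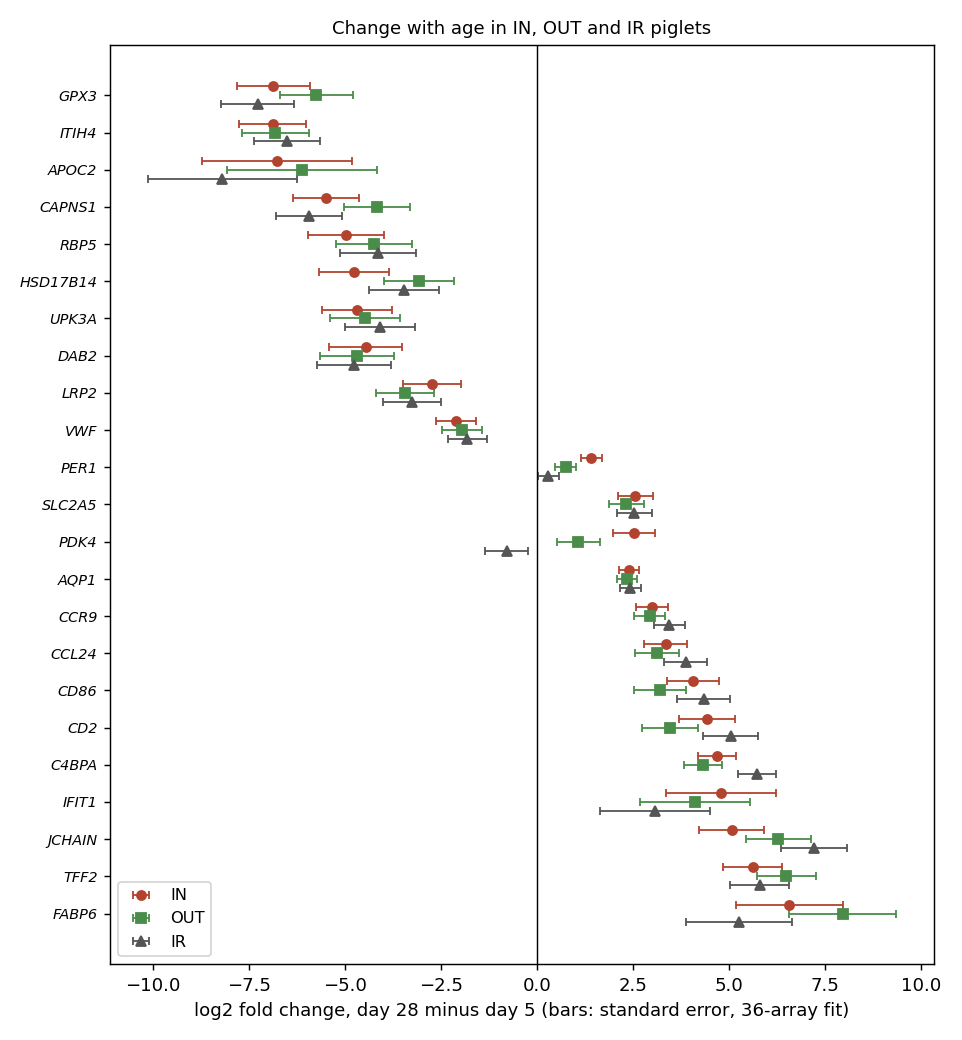
log2 difference of day 28 minus day 5 (horizontal axis) with its standard error from the 36-array fit (bars) for 23 genes in IN (circles), OUT (squares) and IR piglets (triangles). For most genes the 3 points lie within their bars of each other, and PDK4 shows the widest gap relative to its bars, at 2.52 in IN, 1.08 in OUT and -0.79 in IR.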

How the data were processed

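RNA from the ileum of 54 piglets, 1 array a piglet, was hybridized to GeneChip Porcine Genome arrays, and 36 arrays of days 5 and 28 bear on the results. The deposited values are log2 signals, which the authors obtained by gcRMA; the submitters' processing notes name GCOS 1.2, GCRMA and limma. They were used as deposited. Of 24123 probesets, 124 are array controls, and the other 23999 entered every fit whatever their brightness. The platform annotation gave 1 symbol to 10069 (6765 symbols), several to 198 and none to 13732, and only those with 1 symbol were named.

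Groups and replicate numbers came from the sample labels. The methods describe 3 consecutive runs, but the labels do not name the run, so none was fitted, and p-values measure the spread between these piglets. IN day 28 was compared with IN day 5 with limma 3.58.1 in R 4.3.3 on 12 arrays, and changes between rearing groups by interaction contrasts on 36 arrays, from which SEs of OUT and IR changes also come. Single genes were also compared by exact two-sided permutation tests. Arrays give no counts, and their number limits the precision. The fit was tested on simulated data.

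A gene was represented by its brightest probeset, and lists (33, with 554 of 853 genes on the array) are described by counts and medians. Named are the 15 largest rises and falls, by any called probeset, and up to 6 called members of a list, with others where they define it. FCGRT, IGF2, CD4 and the like are such uncalled members. Levels of different genes are not compared. Members and lists were chosen with earlier results of these data known. Alternatives were blocks by replicate number, other sets of arrays, a filter at a log2 value of 4 in at least 6 arrays, array weights, robust fitting with a trend on intensity, centring on medians, renewed quantile normalization, other thresholds and single arrays left out; leaving out OUT day 5 replicate 3 was added after seeing the data. Same-numbered arrays did not pair. Figures were drawn with matplotlib 3.10.9.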

Additional observations from a re-analysis of the deposited data

Results flagged for a closer look

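For each of 104 genes the highest and lowest piglet of IN day 28 and of IN day 5 were set against the others of their group. In 208 groups, 31 values stood farther off than Dixon's limit at 95% allows. Its rate of about 1 in 20 groups holds for unselected, independent genes and not for these. Of the 104 genes, 79 were called between the ages in the same arrays, so an IN day 28 array near day 5 was likely to stand apart in them. Of the 31 values, 26 were IN day 28 replicate 3, which adds nothing separate to its position described above. In genes higher in IN day 28 it was the lowest of its group, at 3.14 in LOC100152327, 2.82 in LOC396781, 2.60 in TFF2, 4.70 in JCHAIN, 3.86 in IFIT1, 7.65 in C4BPA, 3.79 in CD2, 3.30 in FAXDC2 and 3.24 in LOC100621559. The same held in TAP1 (6.39), PSMB8 (7.08), SLA-8 (7.95), CCL5 (6.23), MCT7 (2.62) and ARNTL (4.75). In genes lower in IN day 28 it was the highest, at 8.93 in ITIH4, 12.15 in GPX3, 9.70 in RBP4, 8.79 in RBP5, 8.51 in HSD17B14, 9.24 in ACSS3, 10.57 in TDH, 7.54 in HPN, 6.75 in ETNK2, 9.73 in LOC100154873 and 4.34 in LRP2.

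The other 5 values had no array in common. IN day 28 replicate 6 was low in GCG (9.46), and IN day 28 replicate 4 was high in IGFBP2 (3.92). In IN day 5, replicate 1 was high in LOC396781 (6.00), replicate 6 in TFF2 (2.89) and replicate 3 in CHGA, a protein of enteroendocrine granules (5.28). With all arrays no change with age passed the test of a difference between IN and OUT or IR piglets, and without IN day 28 replicate 4 that of C6H18orf21 did between IN and IR (1.41, adjusted p = 0.0430).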

How the results depend on the processing

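The number of probesets called followed the arrays and the threshold. Higher in IN day 28 were 564, and 861 with the spread of 36 arrays, 908 with that of all 54, 1203 with no fold limit and 147 at an adjusted p under 0.01; lower were 761, and 1441 with no fold limit and 262 at an adjusted p under 0.01. Over the 12 fits without 1 array the counts ran from 344 (without IN day 5 replicate 3; 357 without IN day 5 replicate 4) to 1059 higher and from 505 (without IN day 5 replicate 4; 507 without IN day 28 replicate 6) to 1210 lower, both highest without IN day 28 replicate 3. Interactions gave 0 to 1 in these fits, and 75 against OUT and 80 against IR at an unadjusted p under 0.01 with 2-fold. Same-numbered arrays correlated in their deviations at -0.05 to 0.22, and 1 of 6 correlated best with its own number, so the numbers were not taken to pair the piglets; with the replicate number as a block 507 were higher and 665 lower, with numbers blocked in twos 656 and 858, and interactions stayed at 0. Other probesets turned the direction of LOC100621559 (-0.053, -0.202 and -0.369), APOE (0.14), CD247 (-0.10), TAP1 (-0.19), GPNMB (-0.32), VWF (0.014 and 0.003) and PER1 (-0.044), of which the cause was not tested. Of 79 called genes named, 50 stayed called in all 12 fits without 1 array. The other 29, called in 1 to 9 of the fits with adjusted p up to 0.100, were JCHAIN, CCL19, FAXDC2, XAF1, LOC100621559, TDH, LOC100154873, GUSB, HEXA, APOE, ASL, CD3E, CD247, TAP1, PSMB8, DDX58, CCL5, CXCR4, GPNMB, FCER1G, MCT7, TYROBP, SLPI, PLAGL1, GRB10, PEG10, COL15A1, SLC39A4 and CLDN3. The filter on dim probesets left 90 of the 104 genes named. With 6 piglets a group and an SD of 0.76 in IN day 28, small differences are beyond reach.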

Other observations

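Some lists that had few or no calls with all 12 arrays gained members without IN day 28 replicate 3, and the members below were chosen after their values were seen. That array was left out because it lay near day 5, which favours such gains, so they are no separate support. Of 18 complement and acute phase genes 0 were higher and 1 lower in IN day 28 with all 12 arrays, beside 3.89% and 3.59% of all genes. Without replicate 3 of IN day 28, 6 were higher and 1 lower, where 7.83% of all genes were higher and 5.6% lower. C2, a protease of the classical pathway, had 8.82, 8.19, 3.69, 5.68, 5.81 and 9.16 in replicates 1 to 6 of IN day 28, against 3.69 to 5.09 in IN day 5 (log2 difference 2.73, adjusted p = 0.0517 with all arrays, and 3.37, adjusted p = 0.00488, without replicate 3). C1S, a protease of the C1 complex, had 11.70, 11.66, 9.57, 11.20, 10.44 and 11.45 in IN day 28, against 9.74 to 10.43 in IN day 5 (adjusted p = 0.0932 with all arrays and 0.00484 without replicate 3). Replicate 3 was at or below the lowest IN day 5 piglet in both.

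KHK, the kinase that starts fructose breakdown, had 8.93, 8.71, 5.64, 10.55, 9.89 and 8.57 in IN day 28, against 6.35 to 7.50 in IN day 5, and was higher without replicate 3 alone (log2 difference 2.40, adjusted p = 0.00117, against 0.0920 with all arrays). SLA-DRA, a chain of the pig class II molecule, had 11.23, 12.30, 9.74, 12.04, 10.78 and 12.06 in IN day 28, against 10.09 to 10.73 in IN day 5 (adjusted p = 0.107 with all arrays and 0.00668 without replicate 3). In the other direction, CHGB, a granule protein of enteroendocrine cells, had 3.85, 3.82, 7.49, 6.46, 4.49 and 3.47 in IN day 28, against 5.94 to 7.66 in IN day 5 (adjusted p = 0.0650 with all arrays and 0.00671 without replicate 3), where replicates 3 and 4 of IN day 28 lay in the IN day 5 range.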
